A study of Mus musculus with 58 samples.

Results

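A set of 10 receptor genes of T cells was followed through the loss and the gain of a microRNA cluster: the CD28 family (Cd28, Ctla4, Icos, Pdcd1 and Btla) and coinhibitory receptors that lie outside it or close to it (Cd160, Tigit, Cd200, Lag3 and Havcr2). They were chosen by name, 10 of the 24028 genes in the count table, and all 10 passed the filter on low counts, which kept 13709 genes. The choice was made with earlier results of these data known, so their counts and medians beside all genes are descriptive only. The series compared naive and stimulated mouse CD4+ T cells of 3 genotypes by RNA sequencing of poly(A) RNA, in 58 libraries. Its title places the microRNA cluster miR-17-92 in T cell costimulation.

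A T cell needs a signal from its antigen receptor and a further, costimulatory signal, which CD28 supplies when it binds CD80 or CD86 on another cell. ICOS is a costimulatory relative that appears after activation, while CTLA-4 competes with CD28 for the same ligands, and PD-1 (Pdcd1) and BTLA carry inhibitory motifs in their tails. CD160 shares the ligand HVEM with BTLA, TIGIT binds the poliovirus receptor family, LAG-3 binds MHC class II, TIM-3 (Havcr2) binds several ligands, and CD200 is the ligand of an inhibitory receptor found mainly on myeloid cells. Most of these genes are low in resting T cells and come on after activation.

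KO cells came from CD4cre.miR-17-92lox/lox mice, in which a Cre recombinase under Cd4 control removes the cluster. TG cells came from CD4cre.Rosa26loxSTOPloxCAG-miR-17-92Tg mice, where that recombinase excises a stop cassette and lets the Rosa26 locus express extra copies of the cluster. WT cells were labelled wild type, with no Cre named. An effect of Cre can therefore not be told apart from that of the cluster in a comparison with WT. Each genotype was measured naive and at 24 h and 48 h of culture with 50 U/ml IL-2 on bound antibodies. The anti-CD28 coat was 0.2 µg/ml throughout, while the anti-CD3 coat was 0.25 µg/ml for the stimulus termed very weak and 0.5 µg/ml for that termed weak. Every group had 4 libraries, apart from KO naive and WT naive cells with 3 each. Cells were isolated with a commercial naive CD4+ T cell kit from pooled spleen and lymph node cells of 10 mice, male and female, and mouse age was not given in the sources used here. Nothing in the labels says that replicates came from separate pools of mice, so p-values measure the spread between these libraries.

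Each library held 19197383 to 20810338 exonic counts. Mir17, a hairpin of the cluster, had 0 to 2 counts over the 4 libraries of each stimulated KO group, 25 to 54 in each stimulated TG group and 13 to 15 in each stimulated WT group, and 3, 542 and 10 counts in KO, TG and WT naive cells. Cd4 stood at 1023 to 1650 CPM (the counts-per-million unit, here of exonic counts with TMM-scaled library totals) in the naive libraries and Cd3e at 460 to 540 CPM. B cell markers summed to 20.2 to 109 CPM over the stimulated libraries and to 178 to 501 CPM over the naive ones, and myeloid markers to 2.64 to 10.96 CPM over the stimulated and 98.3 to 328 CPM over the naive ones. None of these marker genes was at 0 in all naive libraries of a genotype.

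The 6 mature microRNAs below, from a single arm of each hairpin of the cluster, are shown first because their seeds (bases 2 to 8, in capitals) set the sites searched for. Sequences are those of RefSeq (GRCm38.p6, chromosome 14, plus strand), 5' to 3'.
mmu-miR-17-5p: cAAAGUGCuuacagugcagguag
mmu-miR-20a-5p: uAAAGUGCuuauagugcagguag
mmu-miR-18a-5p: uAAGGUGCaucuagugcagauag
mmu-miR-19a-3p: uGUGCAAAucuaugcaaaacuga
mmu-miR-19b-3p: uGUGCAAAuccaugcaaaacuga
mmu-miR-92a-3p: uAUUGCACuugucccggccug
miR-17 and miR-20a share a seed, miR-19a and miR-19b share another, and miR-18a and miR-92a have a seed each. The sense strand of the longest annotated 3' UTR of each receptor gene (GENCODE M21, GRCm38) was searched for the complements GCACTTT (miR-17 and miR-20a), GCACCTT (miR-18a), TTTGCAC (miR-19a and miR-19b) and GTGCAAT (miR-92a). Icos was the only gene of the 10 with a match. Its 8-base site is printed in capitals within 30 bases at chr1:60998964-60998993, plus strand, position 1268 of a 3' UTR of 2606 bases.
Icos 3' UTR site: gcctggaagtcagccctaGCACTTTAagat
Over 20987 genes with a 3' UTR, 11.7% held GCACTTT, 7.80% GCACCTT, 11.4% TTTGCAC, 6.55% GTGCAAT and 28.7% any of them. The UTRs of the other 9 receptor genes, from 81 bases for Lag3 to 3574 for Cd28, held none of the 4 heptamers. A match describes the letters only, and shorter seed matches and the other arms of the hairpins were not searched.

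Levels per length set the scale on which the receptors compare. In WT naive cells the median RPKM (reads per kilobase of counted length, scaled to the library as CPM is) was 64.6 for Cd28, 57.7 for Btla, 39.0 for Ctla4 and 22.5 for Icos. Cd200 followed at 7.57 RPKM, then Pdcd1 at 4.29, Lag3 at 4.26, Tigit at 3.39, Cd160 at 2.30 and Havcr2 at 0.586. The libraries of Cd28 and Btla overlapped in that order, as did those of Pdcd1, Lag3 and Tigit, whereas every other pair of neighbours was separate. Over the 16 stimulated WT libraries the order was Cd200 at 168 RPKM, Ctla4 at 147, Btla at 123, Icos at 70.0, Pdcd1 at 69.8, Cd28 at 55.1, Lag3 at 41.6, Tigit at 21.9, Cd160 at 4.04 and Havcr2 at 0.179. All neighbours in that order overlapped down to Cd160, with the highest Cd160 library just above the lowest Tigit library, and only Cd160 and Havcr2 were separate. Cd28, Ctla4 and Icos lie within chr1:60746388-61000322 (mm10), in that order along the chromosome.

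Most of the receptors rose on activation of WT cells. In the edgeR quasi-likelihood test over all genes, with calls made where the Benjamini-Hochberg adjusted p was under 0.05, 7 of the 10 were higher and 1 was lower than in naive cells after 24 h of the very weak stimulus, and the same numbers held after 24 h of the weak stimulus. At 48 h 8 of 10 were higher and none lower, under either stimulus. Calls covered 76.3%, 77.4%, 77.7% and 78.2% of all genes tested in these 4 comparisons, so a called receptor does not stand out by its call, and the sizes carry the description. The median log2 change of the 10 receptors was 1.66 after 24 h and 1.90 after 48 h of the weak stimulus, beside -0.09 and 0.02 over all genes tested.

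Cd200 and Pdcd1 had the largest rises at 24 h. Cd200 averaged 17.7 ± 1.97 CPM in WT naive cells (SD, n = 3), 425 ± 66.2 CPM after 24 h and 413 ± 55.2 CPM after 48 h of the weak stimulus (n = 4 each), with log2 changes of 4.58 ± 0.22 and 4.54 ± 0.22 (standard error; edgeR, adjusted p = 4.07e-24 and 5.54e-24). Pdcd1 averaged 7.83 ± 1.73, 160 ± 22.5 and 113 ± 23.8 CPM in the same order, log2 4.35 ± 0.27 and 3.85 ± 0.26 (edgeR, adjusted p = 5.99e-20 and 2.98e-18). Every stimulated WT library was above every WT naive library for these genes, and also for Lag3, Tigit, Ctla4, Icos, Btla and Cd160.

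Lag3, Tigit, Ctla4 and Icos rose less. Lag3 averaged 8.93 ± 1.27 CPM in naive, 67.5 ± 10.2 in 24 h and 124 ± 49.2 in 48 h cells, and Tigit 3.71 ± 0.939, 12.99 ± 1.38 and 33.0 ± 5.57 CPM (SD, weak stimulus). Ctla4 averaged 71.8 ± 8.61, 220 ± 41.9 and 348 ± 59.5 CPM, and Icos 70.5 ± 10.6, 231 ± 22.9 and 203 ± 34.1 CPM. The later time held the higher level for Lag3, Tigit and Ctla4, and the earlier for Icos. Btla was 2.04-fold its naive level at 24 h (log2 1.03 ± 0.24) and 1.98-fold at 48 h (0.99 ± 0.24; edgeR, adjusted p = 0.000128 and 0.000227).

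Cd28, the costimulatory receptor itself, was not called against naive cells in any of the 4 WT comparisons, and its naive and stimulated libraries overlapped. It averaged 363 ± 82.0 CPM in naive, 339 ± 49.8 in 24 h and 288 ± 25.4 in 48 h cells of the weak stimulus. Without WT naive replicate 4, the lowest naive library, Cd28 was lower at 48 h by log2 -0.54 (very weak stimulus) and -0.53 (weak stimulus; edgeR, adjusted p = 0.0128 and 0.0151). DESeq2 called the very weak stimulus at 48 h with all libraries (log2 -0.39; adjusted p = 0.0487). Cd160 passed the test at 48 h only, with log2 1.61 ± 0.38 (very weak) and 1.22 ± 0.38 (weak; edgeR, adjusted p = 0.000167 and 0.0031). Havcr2 was the one receptor that fell, at 24 h, to 0.204 ± 0.0810 CPM under the very weak stimulus and 0.481 ± 0.288 CPM under the weak stimulus, against 1.43 ± 0.307 CPM in naive cells (edgeR, adjusted p = 2.6e-05 and 0.00593). Its stimulated WT libraries held 2 to 22 counts, fewer than any other receptor. TIM-3 is also known from myeloid cells, and the summed myeloid markers ranged from 3.86 to 7.15 CPM in stimulated and from 138 to 328 CPM in naive WT libraries. Their part in the result was not tested.

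**Figure D1:**
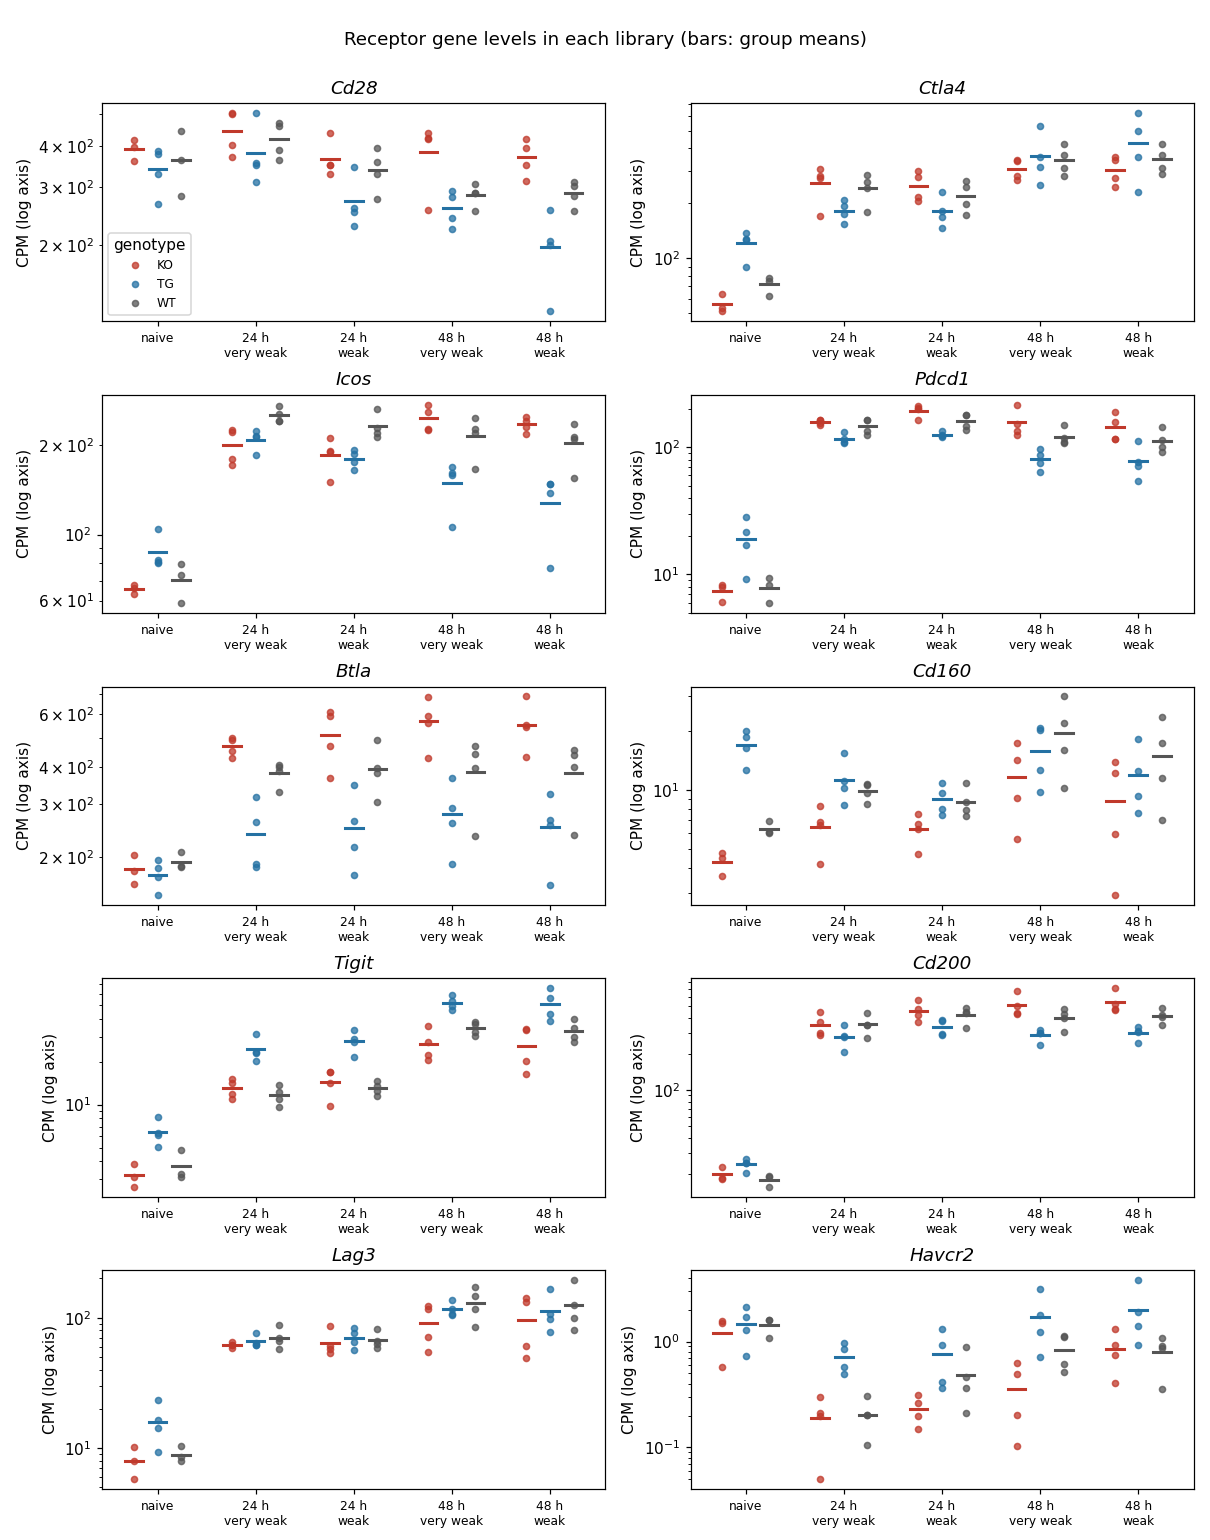
CPM of the 10 receptor genes on log axes in every library, by state and, within a state, for KO, TG and WT cells from left to right. Points are libraries and bars are group means. Cd200 and Pdcd1 show the widest gap between naive and stimulated libraries, while the Cd28 libraries show no such gap.

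Time and strength of the stimulus were compared over all 3 genotypes, with genotypes weighted equally. From 24 h to 48 h, 5 receptors rose and 2 fell (7 of 10, where 71.6% of all genes were called). Havcr2 rose by log2 1.35 ± 0.22, Tigit by 1.12 ± 0.08, Lag3 by 0.73 ± 0.11, Ctla4 by 0.66 ± 0.09 and Cd160 by 0.66 ± 0.14 (edgeR, adjusted p between 3.99e-17 and 3.93e-05). Pdcd1 fell by 0.40 ± 0.08 and Cd28 fell by 0.34 ± 0.07 (edgeR, adjusted p = 2.58e-05 and 2.27e-05). Icos, at log2 -0.13, missed the threshold (adjusted p = 0.0515). It passed with DESeq2 size factors, with no filter and with the replicate number as a block (edgeR, adjusted p = 0.0472, 0.0284 and 0.0418). That block also called Cd200 (log2 0.14; adjusted p = 0.0191), with 10073 of 13709 genes called. Leaving out 1 library gave 7 to 8 receptor calls.

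The step from the very weak to the weak stimulus moved no receptor past the threshold (0 of 10, with 1.03% of all genes called; 5 of 10 at an unadjusted p under 0.05, and 1 by DESeq2). Libraries of equal replicate number deviated together between the 2 strengths, and with the replicate number as a block 2 of 10 were called, where 4.95% of all genes were. These were Cd28, lower by log2 -0.25 ± 0.06, and Cd200, higher by 0.19 ± 0.05 (edgeR with the replicate block, adjusted p = 0.0125 and 0.0269).

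In naive cells, extra copies of the cluster went with higher transcripts of 4 inhibitory receptors, and loss of the cluster with no call. Against WT, 4 of 10 receptors were higher and none lower in TG naive cells, where 7.83% of all genes were called. The median log2 difference of the 10 was 0.59, beside 0.00113 over all genes tested. In bulk RNA, more cells that carry a transcript and more transcript per cell cannot be told apart, here and in every comparison that follows.

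Pdcd1, the gene of PD-1, stood at 16.9, 21.6, 9.24 and 28.5 CPM in the 4 TG naive libraries, against 5.92, 8.28 and 9.29 CPM in WT. TG replicate 3 lay just inside the WT range and the other 3 TG libraries lay well above it. The difference was log2 1.28 ± 0.24 (edgeR, adjusted p = 0.000363), and it was called whichever naive TG or WT library was left out.

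Cd160 had 16.3, 18.5, 12.6 and 19.9 CPM in TG naive cells, against 6.07, 6.05 and 6.92 CPM in WT, so that the groups were separate. Its log2 difference was 1.41 ± 0.38 (edgeR, adjusted p = 0.0131). Ctla4 had 127, 126, 138 and 89.7 CPM in TG and 75.3, 78.1 and 62.0 CPM in WT naive cells, again without overlap (log2 0.75 ± 0.23; edgeR, adjusted p = 0.0378). Tigit, at 6.10, 6.37, 5.07 and 8.14 CPM in TG and 3.27, 4.79 and 3.08 CPM in WT naive cells, was the lowest of the 4 genes and was also separate (log2 0.79 ± 0.24; edgeR, adjusted p = 0.033).

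These calls rest on few naive libraries. Ctla4 missed the threshold without TG replicate 1, 2 or 3 or any WT replicate (adjusted p 0.0748 to 0.189), Cd160 without WT replicate 1 or 2 (0.0559 and 0.0609), and Tigit without TG replicate 2 or 4 or WT replicate 1 or 4 (0.0572 to 0.193) or with only the 2 groups in the fit (0.0536; edgeR in each case).

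Lag3 had 16.5, 14.3, 9.29 and 23.5 CPM in TG naive cells, against 7.91, 10.4 and 8.53 CPM in WT, with TG replicate 3 inside the WT range. Its difference, log2 0.83 ± 0.32, did not pass (edgeR, adjusted p = 0.102). It passed without that replicate (log2 1.01; adjusted p = 0.0431) and with the replicate number as a block (log2 0.92; adjusted p = 0.0215). Whether these numbers pair naive libraries is not known, and the block called 1540 of 13709 genes. Cd28, Btla, Icos, Cd200 and Havcr2 were also not called, with log2 differences between -0.14 for Btla and 0.44 for Cd200. Cd200 passed with that block and with only the 2 groups in the fit (edgeR, adjusted p = 0.0381 and 0.0457).

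Regulatory and memory T cells, which a kit for naive cells should remove, are known to carry CTLA-4, TIGIT and PD-1. The 10 regulatory T cell markers summed to 376 to 563 CPM in TG, 307 to 368 CPM in KO and 359 to 388 CPM in WT naive libraries, and 2 of them were called higher in TG than in WT: Nrp1 (log2 0.92 ± 0.20; adjusted p = 0.00155) and Ikzf2 (0.90 ± 0.22; adjusted p = 0.00535; edgeR). Foxp3, their defining gene, ranged from 42.0 to 72.2 CPM in TG and from 34.8 to 50.8 CPM in WT naive cells. Of 15 memory and effector markers tested, Cxcr3 was higher (log2 1.15 ± 0.36) and Il18r1 lower (-1.07 ± 0.24; edgeR, adjusted p = 0.0347 and 0.00214), and the summed list ran from 261 to 438 CPM in TG and from 335 to 380 CPM in WT. The 10 naive T cell markers summed to 9602 to 11262 CPM in KO, 7933 to 8538 CPM in TG and 8698 to 9578 CPM in WT naive libraries, so that every TG library was below every WT library. Of these markers Lef1 was called lower in TG than in WT (413 to 459.8 CPM in TG and 556 to 659.8 CPM in WT; log2 -0.49 ± 0.14; edgeR, adjusted p = 0.0224) and none was called higher. Il7r, at 233 to 349.6 CPM in TG and 562 to 670.1 CPM in WT, and S1pr1, at 507 to 649.8 CPM in TG and 788 to 846 CPM in WT, were also without overlap but not called (edgeR, adjusted p = 0.131 and 0.418). The 11 markers of CD8, NK and innate-like T cells summed to 125 to 190 CPM in TG and 151 to 221 CPM in WT naive libraries. None of the 11 was called higher in TG than in WT and 1 was called lower. Marker calls are to be read beside the 7.83% of all genes called in this comparison. No marker of these lists was without counts in naive cells, and their part in the receptor differences was not tested.

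KO naive cells differed from WT in 5 of 13709 genes (0.0365%) and in none of the 10 receptors, with none at an unadjusted p under 0.05 by edgeR and none called by DESeq2. Their levels lay between -0.56 for Cd160 and 0.16 for Cd200 on the log2 scale relative to WT. TG naive cells set directly against KO naive cells gave 5 higher and no lower receptor (13.3% of all genes called). They were Cd160 (log2 1.97 ± 0.39), Pdcd1 (1.36 ± 0.25), Ctla4 (1.11 ± 0.24), Tigit (1.01 ± 0.25) and Lag3 (0.99 ± 0.32; edgeR, adjusted p between 6.98e-05 and 0.0311). The call of Lag3 was lost without KO replicate 1 or 2 or TG replicate 1 or 4 (adjusted p 0.0574 to 0.168).

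**Figure D2:**
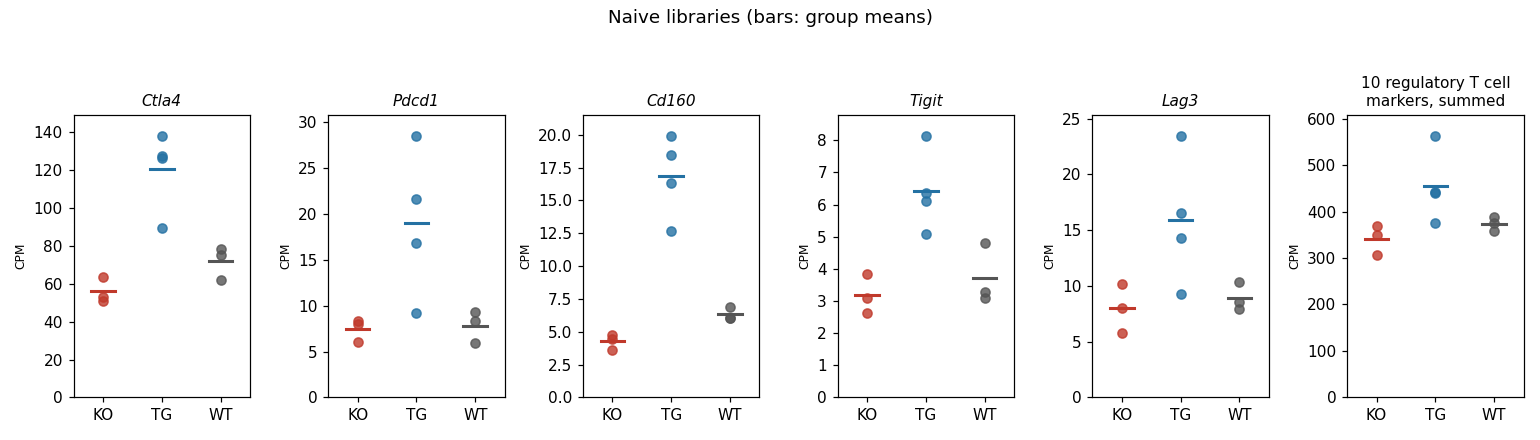
CPM of 5 receptor genes and of the summed regulatory T cell markers in naive KO, TG and WT libraries, on linear axes from 0. Points are libraries and bars are group means. The 4 TG libraries of Cd160 sit between 12.6 and 19.9 CPM, above every KO and WT library.

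In stimulated cells the effect of the extra copies was mixed in direction. For a summary of the 4 stimulated states, counts were summed over the states of each genotype and replicate number, which gave 4 pools per genotype. Pools of equal number deviated together across genotypes, so that a fit with the number as a block is given wherever it changes a call. Between TG and WT pools, 1 of 10 receptors was higher and 3 were lower (13.6% of all genes called), and the median log2 difference of the 10 was -0.20, beside -0.01 over all genes. With the replicate block 7 of 10 were called, where 29.3% of all genes were.

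Tigit was the receptor that rose. TG pools had 43.3, 43.8, 32.4 and 35.0 CPM, against 24.7, 25.5, 21.3 and 20.9 CPM in WT pools, and the lowest TG pool exceeded the highest WT pool. The log2 difference was 0.74 ± 0.16 (edgeR, adjusted p = 0.0126). It was also called in every single state. After 24 h of the weak stimulus TG libraries had 33.1, 29.0, 21.7 and 27.3 CPM, against 14.7, 13.5, 11.5 and 12.4 CPM in WT (log2 1.10 ± 0.20; edgeR, adjusted p = 0.000346), without overlap. After 24 h of the very weak stimulus TG libraries had 31.1, 23.0, 20.1 and 23.3 CPM, against 12.2, 9.63, 13.7 and 10.9 CPM in WT (log2 1.07 ± 0.20; edgeR, adjusted p = 0.000597). At 48 h the differences were smaller, at log2 0.59 ± 0.19 (very weak) and 0.63 ± 0.19 (weak; edgeR, adjusted p = 0.0338 and 0.0275), but the change from 24 h to 48 h did not pass its own test (log2 -0.48 ± 0.20; edgeR, adjusted p = 0.249). The calls at 48 h were lost without TG replicate 1 or 2 or WT replicate 3 or 4 (adjusted p 0.0714 to 0.107 under the very weak and 0.0757 to 0.163 under the weak stimulus), and that of the weak stimulus also with only the 2 groups in the fit (0.061).

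Icos, the costimulatory receptor with the seed match, fell in TG pools. In KO pools it was not called (log2 -0.05 against WT; edgeR, adjusted p = 0.694), and the part of the match was not tested. TG pools had 171, 147, 171 and 177 CPM, against 232, 215, 231 and 225 CPM in WT pools, with no overlap and a difference of log2 -0.44 ± 0.07 (edgeR, adjusted p = 0.00224). In single states the fall was called at 48 h, at log2 -0.53 ± 0.14 under the very weak and -0.67 ± 0.14 under the weak stimulus (edgeR, adjusted p = 0.00899 and 0.00116). TG replicate 2 was the lowest of its group at 48 h, with 106 CPM under the very weak and 77.1 CPM under the weak stimulus. Without it the first of these differences was log2 -0.41 (adjusted p = 0.0658), while the second stayed called. With only the 2 groups in the fit the weak stimulus at 48 h gave an adjusted p of 0.0775. That fit called the fall of Icos at 24 h instead, at log2 -0.27 (very weak) and -0.35 (weak; edgeR, adjusted p = 0.0418 and 0.0167).

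Pdcd1 had 86.3, 97.1, 111 and 107 CPM in TG pools, against 137, 121, 139 and 144 CPM in WT pools, every TG pool below every WT pool. The difference was log2 -0.43 ± 0.10 (edgeR, adjusted p = 0.0176). Btla, the receptor for HVEM, had 259, 189, 231 and 339 CPM in TG pools, against 398, 311, 390.2 and 444 CPM in WT pools, and TG pool 4 overlapped the WT range. Its difference was log2 -0.60 ± 0.16 (edgeR, adjusted p = 0.03). Pdcd1 missed the threshold without TG pool 1 or 2 or WT pool 4 (adjusted p 0.0531 to 0.0584), and Btla without TG pool 1, 2 or 3 or WT pool 1, 3 or 4 (0.0631 to 0.0952).

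Cd200, Cd28 and Havcr2 were not called in the pools without the replicate block and were called with it. They were also called without a block with 16 libraries per genotype in place of pools (edgeR, adjusted p = 9.87e-05, 0.00619 and 0.000175), as were 4634 of all 13709 genes. That fit takes the 4 states of a replicate number as separate replicates. Same-numbered libraries deviated together between strengths, so its p-values can be too small. DESeq2 called Cd200 and Havcr2 in the pools (adjusted p = 0.0233 and 0.0172), where it called 2494 of 13699 genes. Cd200 had 340.2, 245, 293 and 319 CPM in TG pools, against 468, 360.5, 363 and 402 CPM in WT pools, so that the groups were separate, and was lower by log2 -0.41 ± 0.07 with the block (edgeR, adjusted p = 0.00203) and with an adjusted p of 0.0581 without it. Cd28 had 256, 249, 256 and 349 CPM in TG pools and 301, 336, 333 and 364 CPM in WT pools (log2 -0.28 ± 0.08; edgeR, adjusted p = 0.0242 with the block and 0.169 without). TG pool 4 alone lay inside the WT range of Cd28, and without that pool the unpaired difference was log2 -0.39 (adjusted p = 0.0297). Havcr2, at 1.14, 2.26, 0.647 and 1.13 CPM in TG pools and 0.633, 0.796, 0.522 and 0.384 CPM in WT pools, was higher in each pair (log2 1.09 ± 0.22 with the block; edgeR, adjusted p = 0.00549, and 0.0575 without). Without TG pool 3, the lowest TG pool of Havcr2, the unpaired difference was log2 1.37 (adjusted p = 0.0265).

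Ctla4, Cd160 and Lag3 were not called between TG and WT pools. Ctla4 averaged 288 ± 60.0 CPM in TG and 290 ± 36.7 CPM in WT pools (SD, n = 4), and its TG pools of numbers 1 and 2 were above, and those of 3 and 4 below, their WT counterparts. Cd160 averaged 11.98 ± 2.70 CPM in TG and 13.2 ± 4.40 CPM in WT pools, and Lag3 90.8 ± 12.9 CPM in TG and 98.5 ± 23.5 CPM in WT pools. For all 3 genes the difference was smaller than the SD within either genotype.

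State by state, the receptors called between TG and WT were 1 of 10 at 24 h under the very weak stimulus (3.73% of all genes called) and 1 of 10 under the weak stimulus (4.81%), in both cases Tigit. With the replicate block Btla (log2 -0.70 ± 0.18) and Havcr2 (1.81 ± 0.49) joined it under the very weak stimulus, making 3 of 10 (6.71%), and Btla (-0.67 ± 0.18) under the weak stimulus, making 2 of 10 (8.48%; edgeR, adjusted p 0.0103, 0.0146 and 0.0137). Btla was also called without the block when TG replicate 4 was left out (log2 -0.84 and -0.86; adjusted p = 0.0289 and 0.019). With only the 2 groups in the fit Btla was called under both stimuli (edgeR, adjusted p = 0.0147 and 0.0483), as was Icos. Pdcd1 was called in that fit under the weak stimulus (log2 -0.34; adjusted p = 0.0367). DESeq2 called Btla under both stimuli (adjusted p = 0.0341 and 0.0369), where it called 647 of 13080 and 860 of 12324 genes.

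At 48 h of the very weak stimulus 4 of 10 receptors were called (13.3%): Tigit higher, and Icos, Pdcd1 (log2 -0.59 ± 0.20) and Cd200 (-0.49 ± 0.17) lower. Under the weak stimulus 3 of 10 were called (9.96%), namely Tigit higher and Icos and Cd28 (-0.55 ± 0.17; adjusted p = 0.0266) lower. With the block these became 7 of 10 (14.1%), with Pdcd1 (-0.53 ± 0.18), Btla (-0.61 ± 0.18) and Cd200 (-0.46 ± 0.13) lower and Havcr2 (1.19 ± 0.37) higher. Each of Pdcd1 and Cd200 under the very weak stimulus (adjusted p = 0.0417 and 0.0396) and Cd28 under the weak stimulus lost its call without any of several single libraries. They were TG replicate 1, 2 or 4 or WT replicate 3 or 4 for Pdcd1 (0.0602 to 0.148), TG replicate 1, 2 or 3 or WT replicate 1, 3 or 4 for Cd200 (0.0543 to 0.131), and TG replicate 1 or 2 or WT replicate 3 or 4 for Cd28 (0.0536 to 0.213). With only the 2 groups in the fit Cd28 had an adjusted p of 0.0986. In turn, under the weak stimulus Pdcd1 passed without TG replicate 3 (adjusted p = 0.0149), Btla without TG replicate 4 or WT replicate 2 (0.031 and 0.015), Cd200 without WT replicate 2 (0.0396) and Havcr2 without TG replicate 3 or 4 (0.0254 and 0.0489), and under the very weak stimulus Btla without WT replicate 2 (0.0453). DESeq2 called Btla under the weak stimulus (log2 -0.59; adjusted p = 0.0477), where it called 1501 of 13837 genes.

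**Figure D3:**
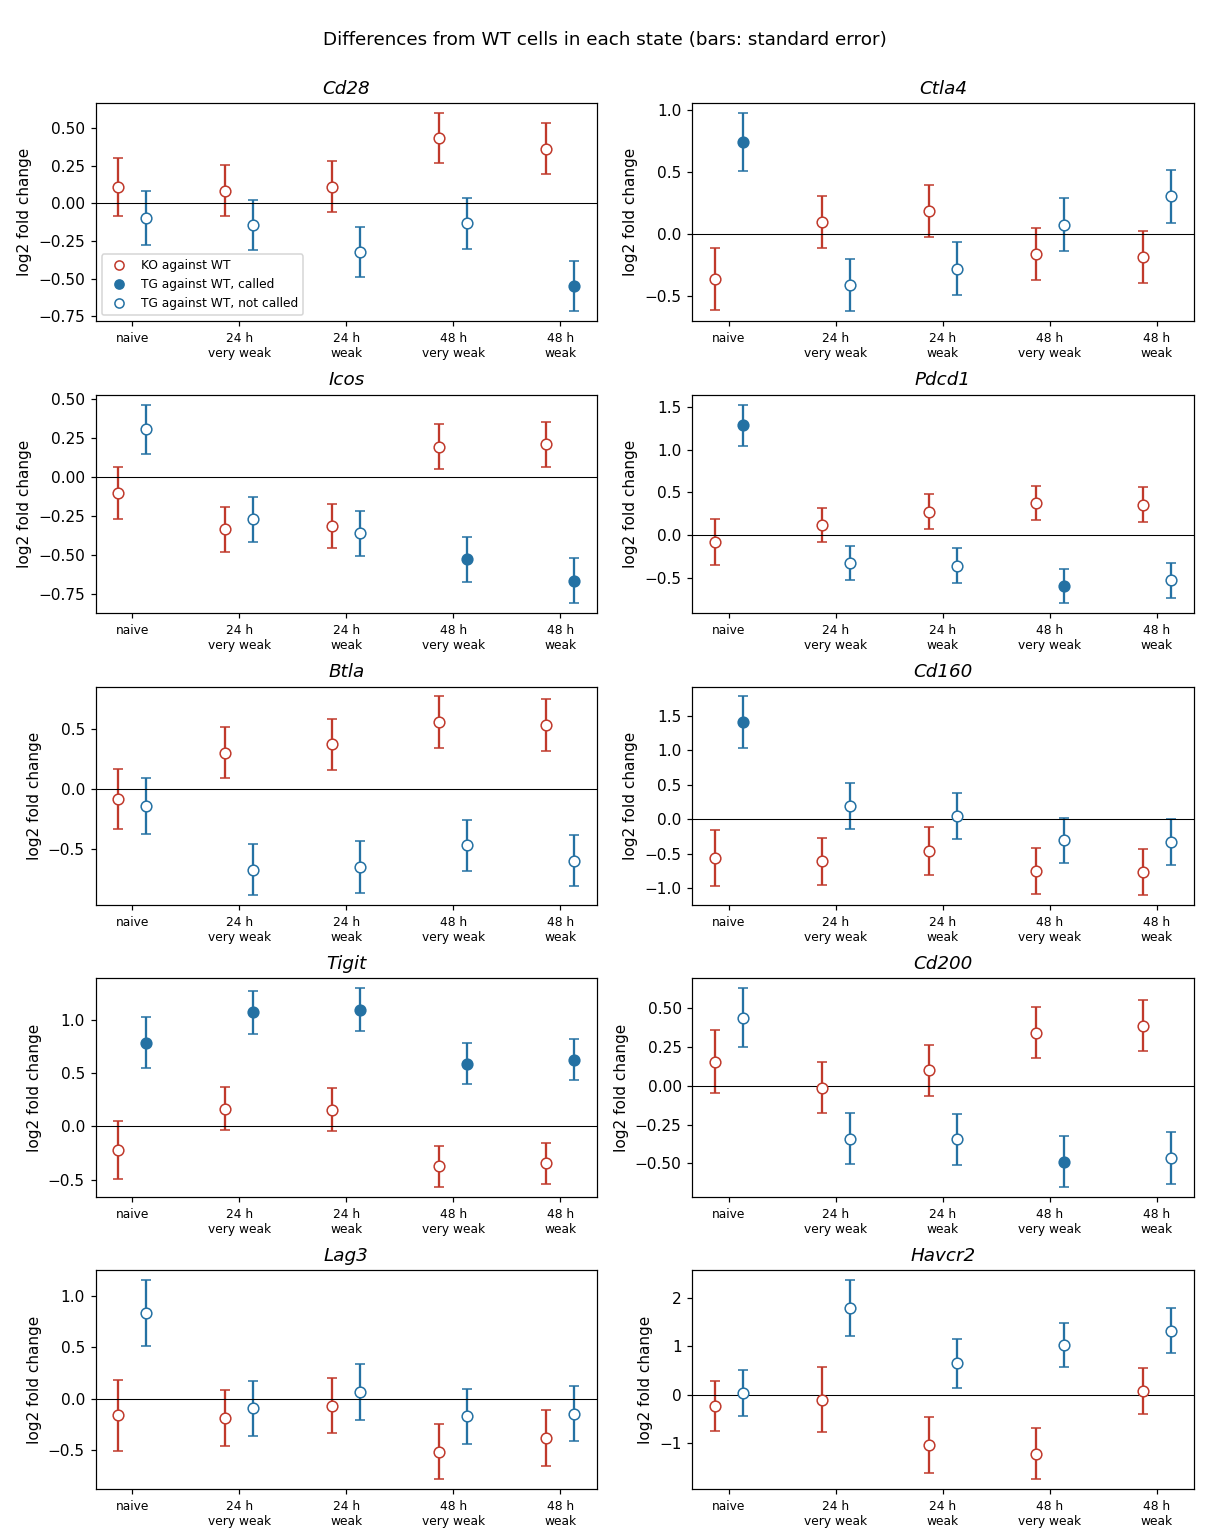
Log2 fold change of KO and TG against WT cells in each state for the 10 receptor genes, with standard errors from the edgeR fit of all 58 libraries. Filled points are called at an adjusted p under 0.05 without a block, which no KO point is. Tigit is filled in all 5 TG states, and Pdcd1 lies at 1.28 in naive TG cells and below 0 in all 4 stimulated states.

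Loss of the cluster gave no receptor call in the fit of all libraries or in that of the pools, and a few calls under other settings. Without the block 0 of 10 were called between KO and WT after 24 h of the very weak (1.06% of all genes called) and weak stimulus (1.40%) or after 48 h of the very weak (4.63%) and weak stimulus (5.04%), with 1, 1, 5 and 4 of 10 at an unadjusted p under 0.05 and 0 by DESeq2 in each. In the pools 0 of 10 were called (5.93%), with 3 at an unadjusted p under 0.05 and 0 by DESeq2. With the replicate block 5 of 10 were called in the pools, where 19.4% of all genes were. With the 16 stimulated libraries per genotype in place of pools and no block, 4 of 10 were called, namely Btla, Pdcd1 and Cd28 higher and Cd160 lower (edgeR, adjusted p 0.00176 to 0.0322). That fit called 3349 of all 13709 genes and takes the 4 states of a replicate number as separate replicates.

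Btla, Pdcd1 and Cd200 were higher in KO pools by that paired test. Btla had 550.1, 459.9, 481 and 613 CPM in KO pools, against 398, 311, 390.2 and 444 CPM in WT pools, and every KO pool was above every WT pool (log2 0.45 ± 0.07; edgeR with the block, adjusted p = 0.00222, and 0.128 without). Pdcd1 had 141, 152, 191 and 174 CPM in KO pools, against 137, 121, 139 and 144 CPM in WT pools, and the lowest KO pool fell inside the WT range (log2 0.28 ± 0.06; edgeR, adjusted p = 0.0151 with the block and 0.126 without). Cd200 had 589, 439.9, 413 and 420.2 CPM in KO pools and 468, 360.5, 363 and 402 CPM in WT pools, with overlap but higher in each pair (log2 0.22 ± 0.07; edgeR, adjusted p = 0.0493 with the block and 0.348 without).

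Cd160 and Lag3 were lower. Cd160 had 4.34, 7.07, 11.8 and 10.0 CPM in KO pools, against 8.38, 11.5, 18.7 and 14.4 CPM in WT pools, lower in each pair although the groups overlapped (log2 -0.70 ± 0.10; edgeR, adjusted p = 0.0023 with the block and 0.22 without). Lag3 had 90.1, 97.3, 55.0 and 71.1 CPM in KO pools and 83.4, 126, 74.7 and 110.2 CPM in WT pools, lower in 3 of 4 pairs and higher in that of number 1 (log2 -0.33 ± 0.10; edgeR, adjusted p = 0.0459 with the block and 0.346 without). Lag3 (chr6:124904359-124912434, mm10) lies next to Cd4, whose intronic level in naive cells was 1551 ± 242 in KO, 1321 ± 197 in TG and 262 ± 58.2 intronic CPM (scaled in the same way to the intronic total) in WT. KO and TG are the genotypes with a Cre under Cd4 control. In the same naive cells the intronic level of Lag3 was 2.43 ± 0.942 in KO, 4.34 ± 1.51 in TG and 2.68 ± 0.901 intronic CPM in WT. In the stimulated pools, where Lag3 was called, it was 64.7 ± 8.44 in KO, 69.2 ± 7.85 in TG and 80.3 ± 13.3 intronic CPM in WT. The part of Cre and of the neighbouring locus in the Lag3 counts was not tested.

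Libraries of 1 genotype were widely spread for Cd160 and Lag3 after 48 h of the weak stimulus. Cd160 had 2.91, 5.99, 13.8 and 12.2 CPM in KO, 7.62, 9.30, 18.1 and 12.4 CPM in TG and 7.02, 11.5, 23.5 and 17.3 CPM in WT libraries, with numbers 3 and 4 higher in all 3 genotypes. Lag3 had 131, 141, 49.0 and 60.8 CPM in KO, 107, 166, 77.6 and 98.1 CPM in TG and 99.7, 193, 80.4 and 125 CPM in WT libraries of the same state, with numbers 1 and 2 above 3 and 4 in KO and TG cells but not in WT cells, where number 4 was above number 1. Cd28, Icos, Ctla4, Tigit and Havcr2 were not called in the KO pools with or without the block. Of these, Cd28 averaged 394 ± 54.3 CPM in KO and 334 ± 25.8 CPM in WT pools (SD, n = 4) with a log2 difference of 0.24 ± 0.12.

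In single states the block called Btla (log2 0.56 ± 0.18) and Cd160 (-0.75 ± 0.24) in KO cells at 48 h of the very weak stimulus (2 of 10, 8.35% of all genes; edgeR, adjusted p = 0.0456 and 0.0409) and Cd160 (-0.78 ± 0.24) under the weak stimulus (1 of 10, 8.70%; adjusted p = 0.0345). Cd28 had 423, 438, 255 and 421 CPM in KO cells at 48 h of the very weak stimulus, against 288, 254, 307 and 288 CPM in WT. KO replicate 3 stood apart from the other 3 KO libraries, which were above all WT libraries. The difference was log2 0.43 ± 0.17 (edgeR, adjusted p = 0.132), and 0.59 without that library (adjusted p = 0.0207).

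**Figure D4:**
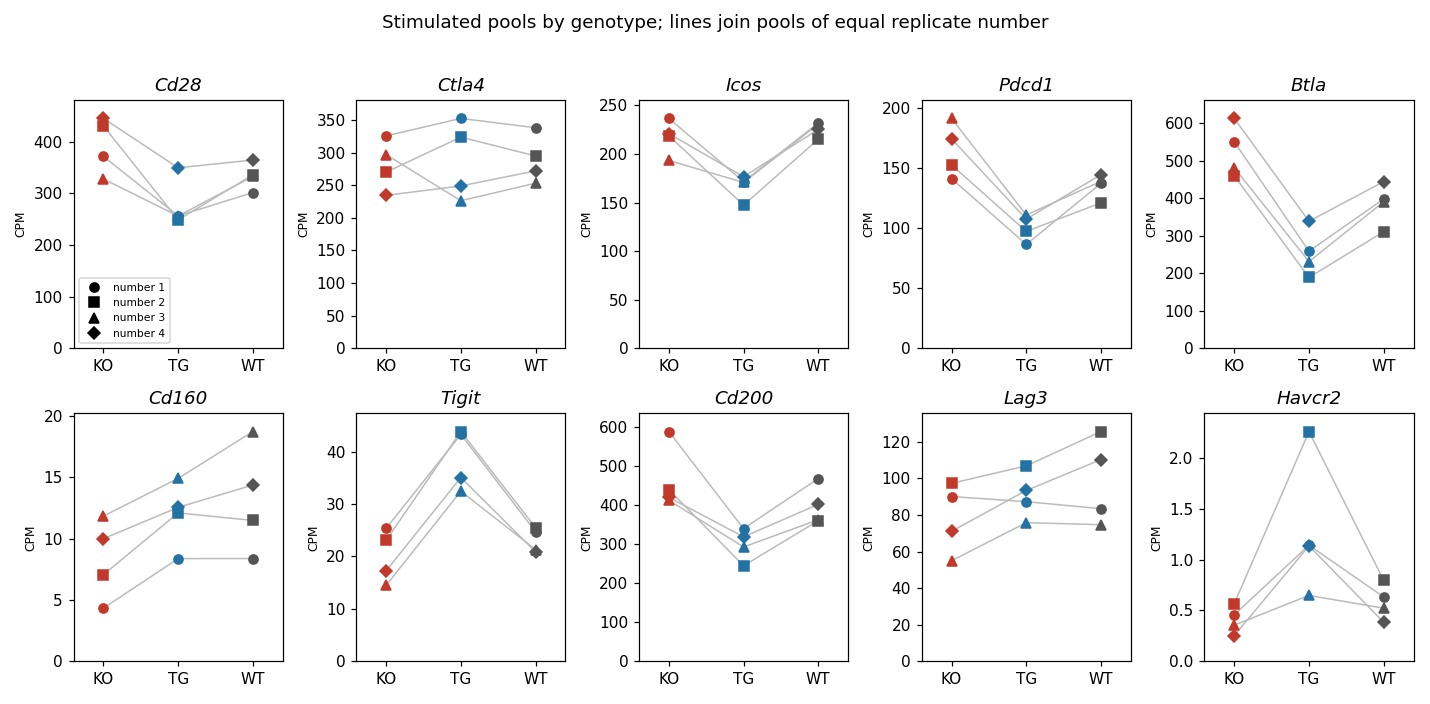
CPM of the 10 receptor genes in the 4 stimulated pools of KO, TG and WT cells, on linear axes from 0. Symbols are replicate numbers and lines join pools of equal number. Btla, Pdcd1 and Cd200 are highest in KO and lowest in TG pools for every number, and Tigit is highest in TG pools for every number.

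TG and KO cells both carry Cre, and their pools gave the most calls of the 3 pool comparisons. Of the 10 receptors 2 were higher and 5 lower in TG than in KO pools, where 44.3% of all genes were called, and all 7 calls held whichever pool was left out. Tigit was higher by log2 0.95 ± 0.17 and Havcr2 by 1.66 ± 0.38 (edgeR, adjusted p = 0.000706 and 0.00362). Btla was lower by log2 -1.049 ± 0.16, Pdcd1 by -0.71 ± 0.10, Cd200 by -0.64 ± 0.13, Cd28 by -0.50 ± 0.12 and Icos by -0.38 ± 0.07 (edgeR, adjusted p between 0.000191 and 0.00514). All 4 TG pools lay below all 4 KO pools for Btla, Pdcd1, Cd200 and Icos, and above them for Tigit and Havcr2. With the block Cd160 was also called, higher in TG than in KO pools by log2 0.59 ± 0.10 (adjusted p = 0.000921), making 8 of 10, where 57% of all genes were called.

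For 5 receptors the TG effect in stimulated cells differed from that in naive cells by a test of the difference itself. The mean effect over the 4 stimulated states minus the naive effect was log2 -1.73 ± 0.27 for Pdcd1, -1.50 ± 0.41 for Cd160, -0.85 ± 0.21 for Cd200, -0.82 ± 0.26 for Ctla4 and -0.77 ± 0.17 for Icos (edgeR, adjusted p = 2.36e-05, 0.0185, 0.00829, 0.0423 and 0.00423). These 5 of 10 compare with 6.18% of all genes. Tigit had almost the same TG effect in both, with a difference of 0.06 ± 0.26. The same test of the KO effect called 0 of 10 (0.168% of all genes; 0 at an unadjusted p under 0.05 and 0 by DESeq2). Both tests take the 4 stimulated states of a replicate number as separate replicates. Same-numbered libraries deviated together between strengths, so the p-values of these tests can be too small. Only 3 WT naive libraries enter, and 2 receptors were past the threshold without WT naive replicate 1 or without WT naive replicate 4. Ctla4 missed it without TG naive replicate 1, 2 or 3, any WT naive replicate or any of several stimulated libraries (adjusted p 0.0501 to 0.187) and, with no filter on low counts, at 0.0533. Icos missed it without WT naive replicate 4 (0.0581), Cd160 without TG naive replicate 4 or any WT naive replicate (0.0515 to 0.0702) and Cd200 without WT naive replicate 1 (0.054).

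The change of the genotype effects from 24 h to 48 h called 0 of 10 receptors for KO (0.781% of all genes; 2 at an unadjusted p under 0.05 and 1 by DESeq2) and 0 of 10 for TG (1.85%; 2 at an unadjusted p under 0.05 and 0 by DESeq2). Icos came nearest in KO cells. It had 212, 192, 150 and 189 CPM in KO and 212, 264, 220 and 228 CPM in WT libraries after 24 h of the weak stimulus, and 242, 231, 218 and 249 CPM in KO and 235, 155, 214 and 209 CPM in WT libraries after 48 h. All KO libraries were below all WT libraries at 24 h, the nearest by less than 1 CPM, and the groups overlapped at 48 h. The KO effect moved by log2 0.53 ± 0.14 (edgeR, adjusted p = 0.0612, and 0.0363 with the replicate block, where 1.5% of all genes were called).

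The receptors' exonic changes were not called different from their intronic changes. Intronic reads come mostly from unspliced transcripts, so the exonic minus intronic change is commonly used to set mature transcripts against transcription. The exonic minus intronic change called 0 of 10 receptors for KO against WT pools (0.403% of all genes; 0 at an unadjusted p under 0.05), 0 of 10 for TG against WT pools (0.266%; 1 at an unadjusted p under 0.05) and 0 of 10 for TG against WT naive cells (0.0183%; 2 at an unadjusted p under 0.05). DESeq2 was not run on this comparison.

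Tigit's intronic level was 48.5 ± 7.74 in TG and 24.7 ± 2.25 intronic CPM in WT pools, a log2 difference of 0.96 ± 0.20 (edgeR, adjusted p = 0.0213) beside 0.74 on exonic counts. Btla's intronic difference was -0.72 ± 0.18 between TG and WT pools and 0.60 ± 0.18 between KO and WT pools, neither called. Icos, with its seed match, had an intronic difference of -0.54 ± 0.17 between TG and WT pools (adjusted p = 0.132), and exonic minus intronic changes of 0.10 ± 0.15 in TG and 0.08 ± 0.15 in KO pools (edgeR, adjusted p = 0.93 and 0.952). Ctla4 was the receptor with the unadjusted p under 0.05 in TG pools: its intronic level was 555 ± 31.7 in TG and 706 ± 47.9 in WT pools, whereas its exonic level averaged 288 ± 60.0 CPM in TG and 290 ± 36.7 CPM in WT pools (change 0.34 ± 0.14; edgeR, adjusted p = 0.468). In naive cells the 2 were Pdcd1 (0.91 ± 0.41) and Icos (0.41 ± 0.17; adjusted p = 0.743 and 0.734).

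**Figure D5:**
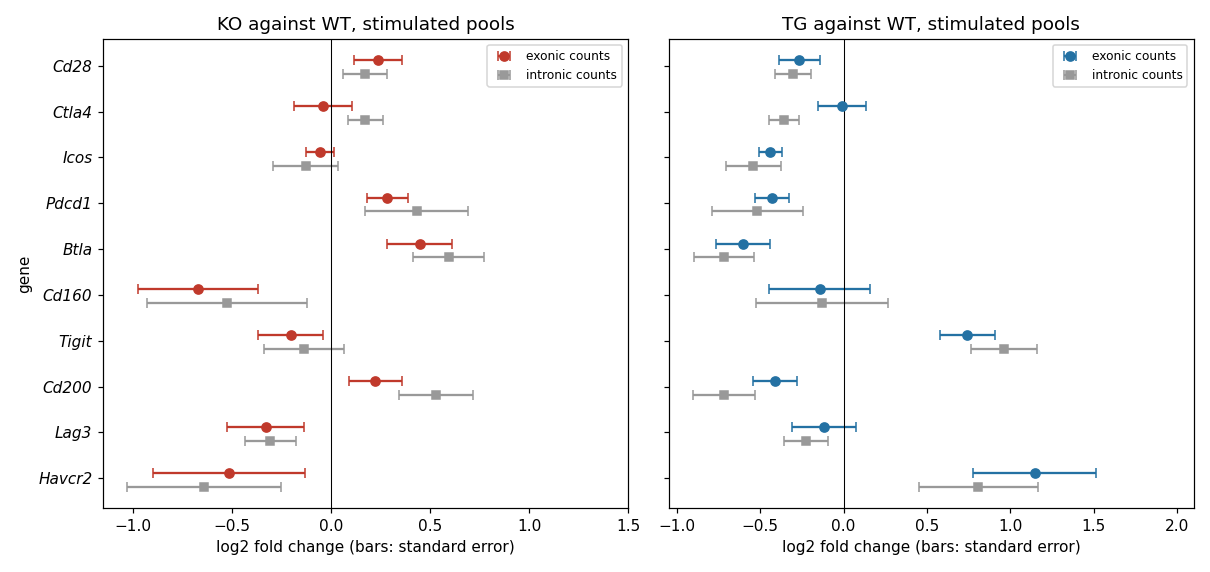
Log2 fold change on exonic counts (coloured circles) and on intronic counts (grey squares) between KO or TG and WT stimulated pools, with standard errors. The 2 measures lie on the same side of 0 for 9 of 10 genes in KO pools and for all 10 in TG pools.

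Genes with the most similar course over the 15 groups were found for each receptor by the root mean square difference of centred group means of log2 CPM, among genes that reached 5 CPM as the mean of some group. Lag3 was nearest to Cks2, Kif18a and Six5 (0.164 to 0.18), Pdcd1 to Brip1, Dscc1 and Lig1 (0.269 to 0.295) and Cd200 to Eea1, Ncaph and Ccdc50 (0.18 to 0.217). Tigit was nearest to Capsl, Zfp768 and Rgs16 (0.296 to 0.308), Ctla4 to Tbc1d31, Snrnp25 and Cd81 (0.193 to 0.213) and Icos to Rnf216, Fbln1 and Cep128 (0.177 to 0.182). Btla was nearest to Atl3, Slc22a15 and Ubash3b (0.168 to 0.178), Cd28 to Cep41, Atm and Arhgap17 (0.154 to 0.155), Cd160 to Ptms, Cuedc2 and Sting1 (0.332 to 0.356) and Havcr2 to Runx3, Satb1 and Zfp516 (0.27 to 0.35). Among the receptors themselves the closest pairs were Icos and Btla (0.371) and Pdcd1 and Cd200 (0.39).

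Counts of partner genes called in the pools are to be read beside the 5.93% of all genes called between KO and WT and the 13.6% called between TG and WT. Of 14 ligand genes tested in the pools, 1 was higher and none lower in KO than in WT, and 1 was higher and 2 lower in TG than in WT, where the median log2 difference of the list was -0.21, beside -0.01 over all genes. Pdcd1lg2, which encodes the PD-1 ligand PD-L2, was higher in KO pools (log2 0.30 ± 0.07; adjusted p = 0.0219) and lower in TG pools (-0.27 ± 0.07; adjusted p = 0.0199). Tnfrsf14, which encodes HVEM, was lower in TG pools by -0.38 ± 0.11, and Nectin3 higher by 0.96 ± 0.23 (edgeR, adjusted p = 0.0317 and 0.0165). Of 8 further receptors of these families, Vsir, the gene of the inhibitory receptor VISTA, was higher in KO pools (0.49 ± 0.12) and lower in TG pools (-0.82 ± 0.12), Cd5 was lower in TG pools (-0.32 ± 0.07) and Lair1 higher (0.59 ± 0.17; edgeR, adjusted p between 0.00158 and 0.0359).

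Of 24 signalling proteins that act at the receptors' tails, 3 were lower and none was higher in TG than in WT pools, close to the 13.6% of all genes, and among them was the kinase Fyn (log2 -0.36 ± 0.09; edgeR, adjusted p = 0.0228). Of 20 transcription factors known to act on receptor genes, 5 were higher and 2 lower in TG pools, where 13.6% of all genes were called, among them Batf3 (2.33 ± 0.49), Prdm1, the gene of Blimp-1 (1.58 ± 0.38), and Tox (-0.55 ± 0.13). The median log2 difference between TG and WT pools was -0.04 for the signalling proteins and 0.20 for the transcription factors. Tbx21, the gene of T-bet, was the 1 called in KO pools, lower by -0.89 ± 0.19 (edgeR, adjusted p = 0.0166). Markers of other T cell states were also called in the TG pools, beside that same share of all genes: of 10 regulatory T cell markers Il2ra and Nrp1 were higher and Foxp3 (-0.98 ± 0.21) and Izumo1r lower, and of 15 memory and effector markers 5 were higher and 1 lower. Of 11 markers of CD8, NK and innate-like T cells tested, 1 was higher and none lower, and their median log2 difference was -0.18. The 1 called was Zbtb16 (1.79 ± 0.41; edgeR, adjusted p = 0.014). Maf stands in both the memory list and that of transcription factors. Foxp3 was at 1.70 ± 0.646 to 7.31 ± 2.38 CPM over the stimulated TG groups and at 5.29 ± 0.961 to 12.3 ± 3.13 CPM over those of WT, and the part of these markers in the receptor differences was not tested.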

How the data were processed

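The series holds RNA-seq libraries of naive and stimulated CD4+ T cells. The files give whole-number counts per gene, separately for exons and introns, as the authors deposited them. Per the labels' protocols, libraries were made with a stranded TruSeq kit and read as single-end 76-base reads. FastQC 0.11.5, STAR 2.5.2a, R 3.5, edgeR 3.24.3 and the build mm10 are listed per the submitters' processing notes. For the counting program, its annotation and its use of strand the sources used here give nothing, and reads of overlapping or antisense genes cannot be told apart. Intronic counts exceeded exonic counts in 14.1% of values. Of 24028 gene IDs, 23968 matched a symbol.

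Groups came from the labels. The members and gene lists were chosen with earlier results of these data known. edgeR 4.0.16 (R 4.3.3) fitted the quasi-likelihood model to all 58 libraries and 15 groups (TMM factors 0.939 to 1.06, filterByExpr, 43 residual degrees of freedom) and to 12 pools (13567 genes, 9 residual degrees of freedom), with Benjamini-Hochberg adjustment over all genes tested and calls at an adjusted p under 0.05. Exonic minus intronic changes were fitted as an interaction, over 11659 genes in pools and 10928 in naive cells. Levels are CPM over the total of the genes tested times the TMM factor, as in the fits, and intronic levels have their own totals and factors. All 10 members were named in every comparison, beside the 3 genes nearest to each in course, up to 4 called genes with the smallest adjusted p between KO or TG and WT pools from each list of ligands, further receptors, signalling proteins and transcription factors, and checks of the cluster and of Cd4. Some genes that this rule names are not reported here. Marker genes were named after their values were seen. The steps were tested on simulated counts.

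Nothing in the labels says that equal replicate numbers mark the same mice. Deviations from the group means of same-numbered libraries correlated at 0.132 or more in all 48 pairs of stimulated genotypes, at 0.268 or more in 24 pairs of strengths and at 0.249 or more in 12 pairs of pools, so a fit with the number as a block is given there. The limit of 0.1 was not met in naive cells (lowest -0.0487), between times (0.0265) or between naive and stimulated cells (-0.17). Exonic totals were 19197383 to 20810338 counts and intronic totals 2739380 to 9106298 counts per library. DESeq2 1.42.0, other size factors, no filter, fits of 2 groups, 16 libraries per genotype in place of pools, the block and each library left out were tried as alternatives.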

Additional observations from a re-analysis of the deposited data

Results flagged for a closer look

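In 4 of 130 groups of 4 libraries, 1 library stood apart from the other 3 by Dixon's test, where chance gives about 1 in 20. Cd28 had 255 CPM in KO replicate 3 after 48 h of the very weak stimulus, against 423, 438 and 421 CPM in the other KO libraries. The other 3 concern Icos in TG replicate 2. It had 105 CPM in naive cells, against 81.1, 80.4 and 82.5 CPM in the other TG libraries. It had 106 CPM after 48 h of the very weak stimulus, against 162, 158 and 169 CPM, and 77.1 CPM after 48 h of the weak stimulus, against 148, 149 and 138 CPM. The cause was not tested.

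The TG effect differed between stimulated and naive cells for 5 receptors by a test of the difference. The stimulated minus naive difference was log2 -0.823 for Ctla4, -0.766 for Icos, -1.73 for Pdcd1, -1.5 for Cd160 and -0.849 for Cd200.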

How the results depend on the processing

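No receptor call changed sign under any alternative run. With the replicate block the calls over the 5 states were 3 for KO and 22 for TG, in place of 0 and 13. Calls over all 13709 genes rose as well. They ran from 13 to 1193 per state for KO, in place of 5 to 691, and from 920 to 2572 for TG, in place of 511 to 1826. The change of the KO effect from 24 h to 48 h gave 1 call in place of 0 with DESeq2 size factors, with the block and with DESeq2. Over all genes these settings called 117 of 13709, 206 of 13709 and 189 of 13080, in place of 107 of 13709. The step from very weak to weak stimulus gave 1 call with no filter, 2 with the block, 2 with the block within genotype and 1 with DESeq2, in place of 0. The last 3 settings called 679 of 13709, 804 of 13709 and 278 of 13458 genes, in place of 141 of 13709. KO pools gave 4 calls with 16 libraries per genotype (3349 of 13709 genes) and 5 with the block (19.4% of genes), in place of 0 (5.93%). TG pools gave 7 with 16 libraries (4634 of 13709 genes) and 7 with the block (29.3%), in place of 4 (13.6%). They gave 2 with replicate numbers 3 and 4 only (555 of 13556 genes). This last setting and that of numbers 1 and 2 were chosen after seeing the data. Same-numbered naive libraries of different genotypes correlated at -0.0487 to 0.428 and so missed the limit of 0.1. Whether their numbers pair them is not known. Their block called Cd200 (log2 0.46, adjusted p = 0.0381) and Lag3 (0.92, 0.0215) between TG and WT naive cells (edgeR). Leaving out 1 library or pool, calls ran from 0 to 1 for KO over the states, 9 to 15 for TG over the states, 4 to 5 for TG against KO naive cells, 2 to 5 for the TG effect in stimulated minus naive cells, 0 to 1 for the KO effect at 48 h minus 24 h, 0 to 1 for the strength and 2 to 5 for TG pools. Only uncalled pool values changed sign. In KO against WT, Ctla4 was at log2 0.01315 with numbers 3 and 4 and Icos at 0.02632 with numbers 1 and 2. Against WT, Ctla4 and Cd160 were at 0.09387 and 0.04175 in TG with numbers 1 and 2, and Ctla4 was at -0.06135 (16 libraries) and -0.1532 (numbers 3 and 4) in TG against KO. Leaving out 1 pool, Ctla4 ran from -0.1224 to 0.03887 in KO, from -0.1187 to 0.09303 in TG and from -0.07566 to 0.1359 in TG against KO, Cd160 from -0.3109 to 0.07338 and Lag3 from -0.2246 to 0.02346 in TG. The cause was not tested. Low counts limit Havcr2, Cd160 and the intronic values of Pdcd1 (126 to 263 counts over a genotype's pools).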
